A study of Mus musculus with 6 samples.

Results

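The cathepsins are the acid proteases of the lysosome, and the 10 genes described here are Ctsd, Ctsa, Ctsb, Ctss, Ctsl, Ctsk, Ctsz, Ctsh and Ctsc with Cst3, which encodes cystatin C, a secreted inhibitor of cysteine cathepsins. They were chosen by name as members of the family, with earlier results of these data known, and are 10 of the 54532 genes in the table. All 10 were detected in every library and passed the filter on low values. Transcripts were measured by poly-A RNA-seq in neutrophils from the bone marrow of C57BL/6J mice, 3 libraries from wild-type (WT) mice and 3 from mice without progranulin (PGRN KO). Every culture, WT cultures included, had been exposed for 6 h to live Candida albicans, a fungal pathogen, and no culture without the fungus is among these libraries, so the values compare the genotypes under challenge. The neutrophils were collected with magnetic beads against Ly-6G, a surface protein of mouse neutrophils. The WT mice and the PGRN KO mice came from different suppliers and the study matched them for sex and age, so genotype and source cannot be told apart. How many mice a culture came from is not stated in the labels or methods, and the p-values measure only the spread between these libraries.

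Progranulin is a secreted glycoprotein that is taken up into lysosomes and cut there by proteases into granulins, and it is known for its part in keeping lysosomes working. Cathepsins are made as inactive precursors, carried to the lysosome by sorting receptors and activated there by cleavage at low pH. Most of them are cysteine proteases of the papain family, whereas cathepsin D is an aspartic protease and cathepsin A a serine carboxypeptidase. In neutrophils cathepsin C has a further role, since it activates the serine proteases stored in the granules. Cystatins bind cysteine cathepsins in the active site and leave cathepsin D alone.

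Each library held between 17087344 and 18821091 fragments on genes. Levels are in FPKM, fragments scaled to library size and to the deposited length of each gene. A comparison of levels between genes thus rests on those lengths. Grn, the gene for progranulin, stood at 168, 161 and 166 FPKM in WT and at 0.242, 0.206 and 0.747 FPKM in PGRN KO libraries. The libraries thus match their labels (log2 difference -6.91, adjusted p = 1.05e-05, limma). None of the 10 genes lies on chromosome 11, where Grn lies. Of the neutrophil markers, 12 of 12 were detected. Their summed level was 72377 to 76943 FPKM in WT and 73688 to 83698 FPKM in PGRN KO libraries. Most of this sum was S100a9, S100a8 and Ngp, so it says little about the scarcer markers. Across the 14807 genes tested, 7.94% were higher and 9.95% lower in PGRN KO neutrophils (limma, adjusted p under 0.05), the median log2 difference was 0.0026, and the libraries of the genotypes did not overlap for 37.7% of the genes.

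In WT neutrophils the cathepsin transcripts fell into an abundant and a scarce set. By FPKM, Ctsd was the most abundant at 1009.8 ± 5.24 (SD, n = 3). It was followed by Ctsz at 806 ± 42.4 and Ctsb at 802 ± 12.3, whose ranges overlapped, and by Ctss at 335 ± 6.63. These 4 transcripts made up 96.1% of the summed level of the 9 cathepsins. By fragments, not divided by length, they made up 93.7%, and there Ctsb came first, with 51.4% against 25.2% for Ctsd. Cst3 followed at 115 ± 2.58 FPKM, then Ctsa at 43.0 ± 3.02 and Ctsh at 33.9 ± 1.00. Ctsl at 18.9 ± 0.741 and Ctsc at 17.8 ± 1.05 FPKM overlapped, and Ctsk was the scarcest at 7.14 ± 0.373 FPKM. The order of the means was identical in PGRN KO neutrophils, where Ctsz and Ctsb again overlapped and Ctsl and Ctsc did not. Ctsk rested on 80 to 194 fragments a library and the other 9 genes on at least 1467.

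**Figure D1:**
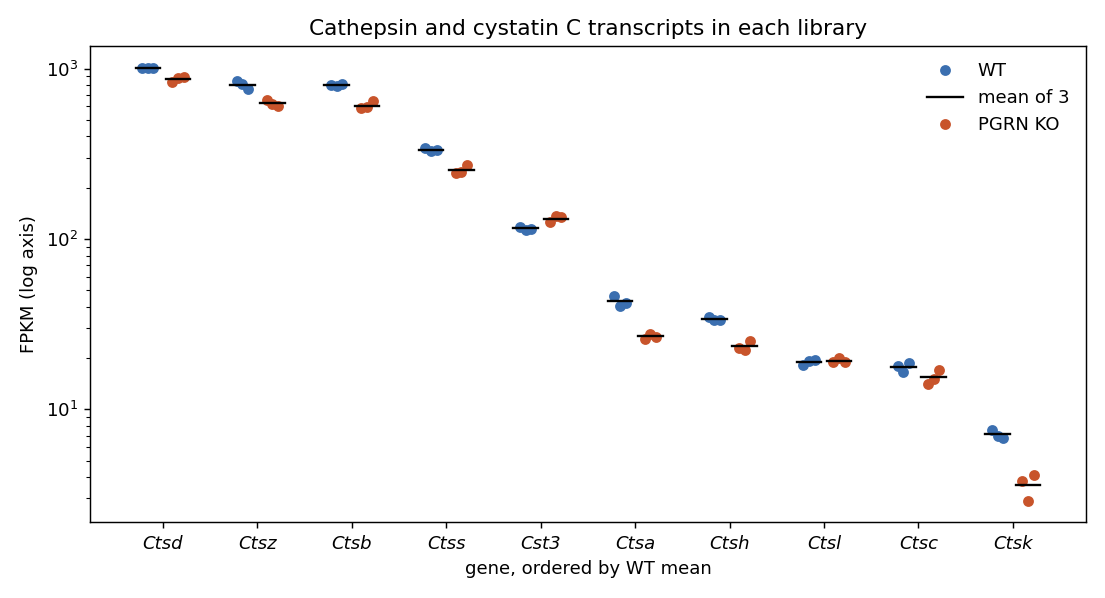
Level of each of the 10 transcripts in FPKM on a log axis, with genes ordered by their WT mean, a point for each library (3 WT, 3 PGRN KO) and a line at each mean. Ctsd stands at the top in both genotypes and Ctsk at the bottom, and the PGRN KO points lie below the WT points for 7 cathepsins and above them for Cst3.

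Many genes of the lysosome carry near their start a short element bound by TFEB and related factors, whose core is the E-box CACGTG, so the promoters of the family were searched for it. RefSeq promoters (GRCm38.p6, 250 bases before to 50 after the start) were matched for 8 of the 10 genes, and Ctsb and Ctsh were not among them. CACGTG, which reads alike on both strands, occurred in 3 of the 8 (37.5%), against 8.09% of the 27025 genes with a promoter. TCACGTGA, a longer form that contains CACGTG, occurred in 2 of the 8 (25.0%), against 1.12%. GAGGAAGT, a site type of the myeloid factor PU.1 searched on both strands, occurred in 2 of the 8 as well, against 3.69% of all. A match is only a run of letters, with no binding measured here. The windows of 28 bases around these matches are shown because they set apart the promoters of Ctsd and Ctsa, which hold the longer form, from that of Ctsl, which holds CACGTG alone, and those of Ctss and Ctsc, which hold the PU.1-type letters. Capitals mark the match, read 5′ to 3′ on the gene's own strand, and positions count from the RefSeq start.
Ctsd, position -99, minus strand, chr7:142387909-142387936: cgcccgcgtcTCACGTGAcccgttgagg
Ctsa, position -13, plus strand, chr2:164833750-164833777: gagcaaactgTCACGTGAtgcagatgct
Ctsa, position 5, plus strand, chr2:164833767-164833794: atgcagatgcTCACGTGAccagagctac
Ctsl, position -236, minus strand, chr13:64370740-64370767: gcgttagaagcCACGTGctgatctaaat
Ctss, position -2, plus strand, chr3:95526774-95526801: atgaaagttcACTTCCTCattgtggatg
Ctsc, position -151, plus strand, chr7:88277924-88277951: tcactaactaACTTCCTCaggccacctc
Ctsa held the longer form at 2 places close together, on either side of the start. In Ctss and Ctsc the capitals are GAGGAAGT as it reads from the other strand. Ctsd held a further CACGTG at position -245.

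In all, 7 genes of the family were lower in PGRN KO than in WT neutrophils, all of them cathepsins, and the inhibitor gene Cst3 was higher. Thus 7 of 10 genes were lower against 9.95% of all genes tested, and 1 of 10 was higher against 7.94%. Because the genes were chosen with earlier results of these data known, these shares are a description. With the filter set at a mean FPKM of 1, which all 10 genes pass, larger shares of all genes were called. There 1598 of 9249 genes were lower and 1270 higher, beside the same 7 and 1 of the 10 genes. Ctsl and Ctsc did not pass the test. The libraries of the genotypes did not overlap for 8 of the 10 genes, against 37.7% of all genes tested. The median log2 difference of the 10 genes was -0.38, and that of the 9 cathepsins -0.40. In RNA from whole cultures, fewer cells that hold a transcript and less of it per cell cannot be told apart.

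Ctsd (ENSMUSG00000007891, chr7:142375911-142388038, minus strand, GRCm38) encodes cathepsin D, the main aspartic endopeptidase of lysosomes. Its level was 1015, 1009.6 and 1005 FPKM in the WT libraries and 839, 882 and 889 FPKM in the PGRN KO libraries. All 3 PGRN KO libraries were below all 3 WT libraries, and the mean fell by 13.8%. The difference was -0.21 on the log2(FPKM + 1) scale (95% interval -0.31 to -0.12, SE 0.040, limma adjusted p = 0.0142). This was the smallest difference among the 7 cathepsins called lower, and the call depended on how the libraries were scaled. It was -0.095 when libraries were scaled to their plain totals (adjusted p = 0.157), -0.096 after quantile normalization (adjusted p = 0.114) and -0.094 with voom (adjusted p = 0.127), and the adjusted p was 0.0570 without WT replicate 1 and 0.0679 without WT replicate 2.

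Ctsa (ENSMUSG00000017760, chr2:164832873-164841032, plus strand) encodes cathepsin A, which removes residues from the C-terminal end of peptides and also holds the sialidase NEU1 and the beta-galactosidase GLB1 stable in a complex. The WT libraries gave 46.3, 40.4 and 42.3 FPKM and the PGRN KO libraries 26.0, 27.8 and 26.8 FPKM. The groups were well separated, and the mean fell by 37.5%. The log2 difference was -0.66 (95% interval -0.80 to -0.51, SE 0.061, limma adjusted p = 0.00122). The genes of its partners in the complex were not called. Neu1 stood at 88.8, 88.0 and 91.1 FPKM in WT and at 89.4, 84.3 and 86.8 FPKM in PGRN KO libraries (log2 difference -0.040, 95% interval -0.14 to 0.056, adjusted p = 0.545), and Glb1 at 2.89 to 3.49 and 3.41 to 3.64 FPKM (0.081, adjusted p = 0.519). Both had overlapping groups.

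Among the cysteine endopeptidases, Ctsb, Ctss and Ctsk were lower and Ctsl was not called. Ctsb (ENSMUSG00000021939, chr14:63122462-63145923, plus strand) encodes cathepsin B, an endopeptidase that also trims C-terminal dipeptides. It measured 807, 788 and 811 FPKM in WT and 585, 593 and 645 FPKM in PGRN KO libraries, without overlap. Its mean fell by 24.2%, a log2 difference of -0.40 (95% interval -0.52 to -0.28, SE 0.049, limma adjusted p = 0.00332). The value was -0.22 after quantile normalization (adjusted p = 0.0358). Its last 774 bases lie over Fdft1 on the other strand, a gene with a mean of 55.9 FPKM, and no source used here says whether the counting used strand.

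Ctss (ENSMUSG00000038642, chr3:95526786-95556403, plus strand) encodes cathepsin S, which stays active at neutral pH and cleaves the invariant chain of MHC class II. Its WT values were 342, 329 and 335 FPKM and its PGRN KO values 244, 248 and 273 FPKM, again with every PGRN KO library below every WT library. The mean fell by 24.0%, close to the change of Ctsb (log2 difference -0.40, 95% interval -0.52 to -0.27, SE 0.052, limma adjusted p = 0.00431). Cd74, the gene of the invariant chain, was also lower, at 85.9, 79.8 and 81.2 FPKM in WT against 64.3, 58.1 and 55.8 FPKM (log2 difference -0.47, adjusted p = 0.00449).

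Ctsk (ENSMUSG00000028111, chr3:95499256-95509362, plus strand) encodes cathepsin K, a collagen-cleaving protease best known from osteoclasts. It lies next to Ctss on the same strand, 17423 bases apart with 0 annotated genes between them. Its level was 7.55, 7.02 and 6.84 FPKM in WT and 3.78, 2.91 and 4.14 FPKM in PGRN KO libraries. In percent this was the largest change of the 10 genes, as the mean fell by 49.4%. The log2 difference was -0.83 (95% interval -1.08 to -0.57, SE 0.107, limma adjusted p = 0.0040), with 548 fragments over the WT and 305 over the PGRN KO libraries behind it.

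Ctsl (ENSMUSG00000021477, chr13:64359337-64370890, minus strand) encodes cathepsin L, a broad endopeptidase of the lysosome. The WT libraries gave 18.1, 19.1 and 19.6 FPKM and the PGRN KO libraries 18.9, 19.9 and 18.98 FPKM. The groups overlapped throughout, and the log2 difference was 0.024 (SE 0.049, limma adjusted p = 0.778). Its 95% interval of -0.092 to 0.14 lies apart from the intervals of Ctsb, Ctss and Ctsk on the same scale. The difference of Ctsl was 0.14 with plain totals and 0.15 with voom (adjusted p = 0.0962 and 0.0839), and it passed the threshold in 0 of 18 alternatives.

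The 3 exopeptidases trim peptides from their ends. Ctsz (ENSMUSG00000016256, chr2:174427493-174439039, minus strand) encodes cathepsin Z, also called X, a carboxypeptidase that removes single residues. It stood at 846, 811 and 761 FPKM in WT and at 651, 621 and 602 FPKM in PGRN KO libraries, with no overlap, although its 3 WT libraries spread more widely than those of Ctsd, Ctsb or Ctss. The mean fell by 22.5% (log2 difference -0.37, 95% interval -0.50 to -0.24, SE 0.054, limma adjusted p = 0.00659). After quantile normalization the difference was -0.19 and no longer passed (adjusted p = 0.123).

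Ctsh (ENSMUSG00000032359, chr9:90054152-90076089, plus strand) encodes cathepsin H, an aminopeptidase. Its level was 35.1, 33.3 and 33.4 FPKM in WT and 22.8, 22.4 and 25.2 FPKM in PGRN KO libraries, so the groups were clearly apart. The mean fell by 30.8% (log2 difference -0.51, 95% interval -0.65 to -0.38, SE 0.057, limma adjusted p = 0.00230).

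Ctsc (ENSMUSG00000030560, chr7:88278085-88310888, plus strand) encodes cathepsin C, the dipeptidyl peptidase that activates the granule serine proteases. It gave 18.0, 16.6 and 18.7 FPKM in WT and 14.2, 15.0 and 17.0 FPKM in PGRN KO libraries. The highest PGRN KO library lay above the lowest WT library. The log2 difference of -0.20 (95% interval -0.38 to -0.015, SE 0.077) did not pass the test (limma adjusted p = 0.130), and it passed in 0 of 18 alternatives. The genes of its substrates were higher. Of 7 granule protease genes, Ctsg (cathepsin G, log2 difference 2.85), Prtn3 (proteinase 3, 2.32), Elane (neutrophil elastase, 2.09) and Prss57 (1.12) were higher in PGRN KO neutrophils. Gzmb passed the filter on low values only through its PGRN KO libraries, with 3 fragments over the WT and 23 over the PGRN KO libraries, so its call is not counted, and the other two were not tested. Elane measured 56.4 to 62.9 FPKM in WT and 246 to 263 FPKM in PGRN KO libraries (limma adjusted p = 1.20e-05). These are also genes of promyelocytes, the precursors that make the primary granules, and the 6 promyelocyte markers, 4 of which are in the granule list, summed to 130.3 to 145 FPKM in WT and 613 to 675 FPKM in PGRN KO libraries. The part of precursor cells in these values was not tested.

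Cst3 (ENSMUSG00000027447, chr2:148871722-148875692, minus strand) encodes cystatin C and was the member that rose. The WT libraries gave 118, 113 and 115 FPKM and the PGRN KO libraries 126, 136 and 134 FPKM. The lowest PGRN KO library exceeded the highest WT library, and the PGRN KO mean was 1.14 times the WT mean. The log2 difference was 0.19 (95% interval 0.082 to 0.30, SE 0.045, limma adjusted p = 0.0314). The call is close to the threshold. The adjusted p was 0.0706 when the variance was modelled without a trend, and it ranged from 0.0674 to 0.119 without WT replicate 1, 2 or 3 or PGRN KO replicate 5 or 6, whereas it was 0.0187 without PGRN KO replicate 4. With voom, plain totals, TPM and quantile normalization the difference was 0.26 to 0.31 and passed.

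**Figure D2:**
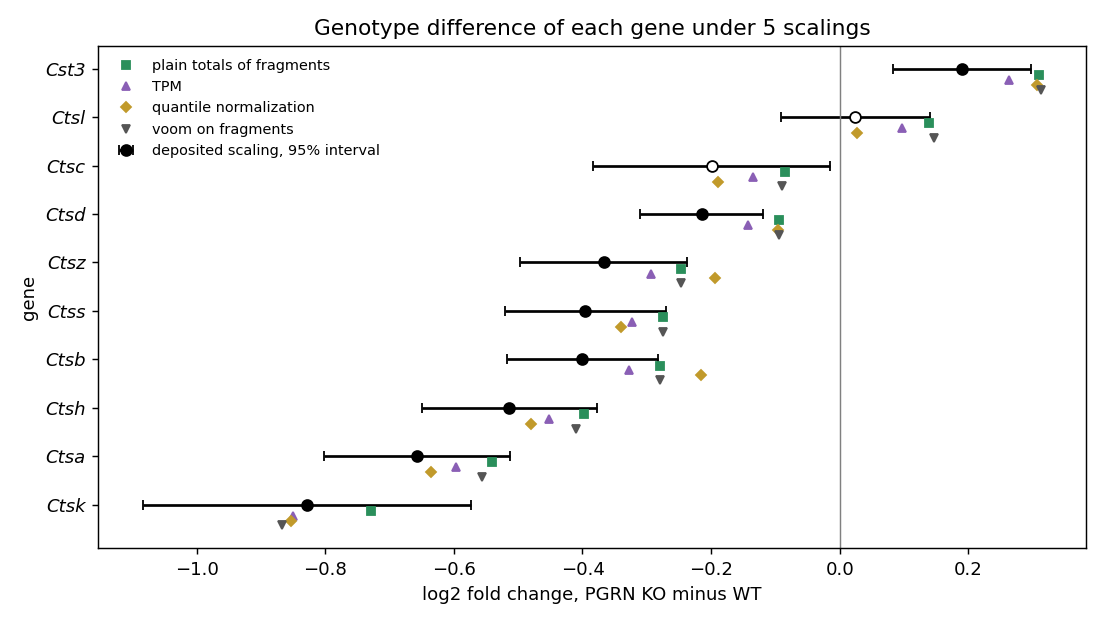
Log2 difference of each gene, PGRN KO minus WT, as a black point with its 95% interval (filled where the limma adjusted p is under 0.05), with coloured markers for 4 other scalings of the same libraries. Ctsk, Ctsa and Ctsh lie farthest to the left under each scaling, Ctsl stays near 0, Cst3 stays above 0, and the markers of Ctsd move to about -0.095 in 3 of the 4 other scalings.

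With 3 of the scalings the PGRN KO libraries stood higher as a whole, and the median of all genes moved up by 0.12 on the log2 scale with voom, 0.064 with plain totals and 0.054 with TPM, whereas it moved by -0.010 with quantile normalization. Read against the median of all genes in the same fit, the difference of Ctsd was -0.22 with voom, -0.20 with TPM, -0.16 with plain totals and -0.088 with quantile normalization. On the same footing that of Ctsb was -0.40, -0.38, -0.35 and -0.21, and that of Cst3 was 0.19, 0.21, 0.24 and 0.31. The values thus came near those of the deposited scaling with voom and TPM and stayed farthest from them with quantile normalization. The split of all called genes moved with it, from 55.6% lower in the deposited scaling to 30.3% with plain totals, 39.0% with TPM and 29.5% with voom. Of the 10 genes, 7, 6, 7 and 6 were lower in these 4 fits.

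Summed over the 9 cathepsins, the level was 3135, 3054 and 3032 FPKM in WT and 2405, 2433 and 2501 FPKM in PGRN KO libraries, 0.796 times the WT mean. The 7 cysteine cathepsins together went from 2021 ± 46.4 to 1549 ± 32.3 FPKM (SD, n = 3). As a share of all FPKM the 9 cathepsins took 0.704% in WT and 0.590% in PGRN KO libraries. The 4 abundant transcripts together held 96.1% of the sum in WT and 96.4% in PGRN KO libraries. Within it, the share of Ctsd went from 32.9% to 35.6% and that of Ctsl from 0.617% to 0.788%, while Ctsa went from 1.40% to 1.10%, Ctsh from 1.10% to 0.960% and Ctsk from 0.232% to 0.147%, each without overlap between genotypes. The shares of Ctsb, Ctss, Ctsz and Ctsc overlapped.

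The ratio of cathepsin to Cst3 transcripts does not depend on the factor by which a library is scaled, since both come from the same library. The summed level of the cysteine cathepsins was 17.5, 17.7 and 17.3 times that of Cst3 in WT and 12.3, 11.2 and 11.8 times in PGRN KO libraries. The PGRN KO mean was thus 0.672 times the WT mean, and the groups were far apart. The ratio was lower for each abundant cathepsin, with Ctsb at 6.95 and 4.61 times the Cst3 level, Ctsz at 6.98 and 4.75 and Ctss at 2.90 and 1.93. Ctsd, which cystatin C does not inhibit, went from 8.75 to 6.60. These ratios are descriptions of the libraries and were given no test. They hold for Cst3 alone and not for cathepsin inhibitors as a group. Cstb, the more abundant gene of the inhibitor cystatin B, had a PGRN KO mean of 0.788 times its WT mean. For the 7 cysteine cathepsins together it was 0.767 times. Of the other inhibitor genes described below, 4 were higher.

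**Figure D3:**
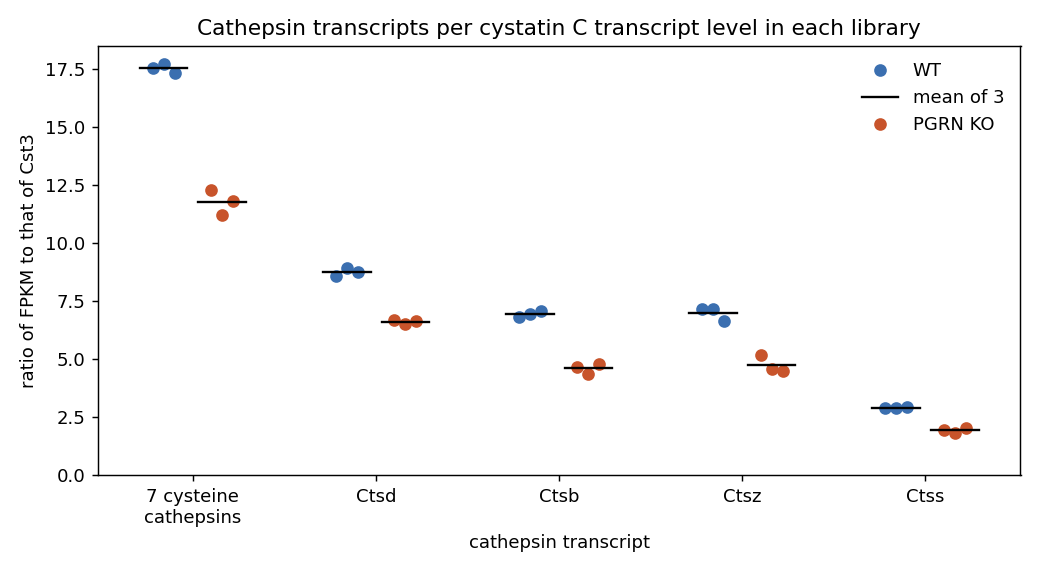
Level of cathepsin transcripts divided by that of Cst3 in the same library (ratio of FPKM, axis from 0), a point for each of 3 WT and 3 PGRN KO libraries and a line at each mean. The ratio for the 7 cysteine cathepsins lies between 17.3 and 17.7 in WT libraries and between 11.2 and 12.3 in PGRN KO libraries, and the genotypes are also apart for Ctsd, Ctsb, Ctsz and Ctss.

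Among the other inhibitors of cathepsins, 7 of 9 genes could be tested, with a median log2 difference of 0.63. Of these, 4 were higher, against 7.94% of all genes tested, 1 was lower, against 9.95%, and 2 were not called. The higher ones were Stfa2 (1.65), Stfa1 (1.04), Cst7 (0.71) and Stfa2l1 (0.63), of which the stefin A genes are near-identical neighbours that can share reads, so their separate values are uncertain. Cst7, which encodes cystatin F, an inhibitor that acts inside the endosomes and lysosomes of immune cells, measured 35.0, 31.6 and 35.1 FPKM in WT and 56.5, 56.0 and 55.6 FPKM in PGRN KO libraries (limma adjusted p = 0.000511). The lower one was Cstb, which encodes the cytosolic inhibitor cystatin B and was the most abundant of the list (named after its values were seen). It stood at 1335, 1286 and 1219 FPKM in WT and at 994, 1010.3 and 1023 FPKM in PGRN KO libraries (log2 difference -0.34, adjusted p = 0.00480). The inhibitor genes thus moved in both directions. Of 14 other cathepsin genes 3 were tested, and Ctsg was higher while Ctse (2.56 ± 0.417 and 2.57 ± 0.357 FPKM) and Ctso (0.903 ± 0.215 and 0.972 ± 0.183 FPKM) were not called, with overlapping groups, and 9 were at 0 in all 6 libraries.

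The list for sorting and maturation of lysosomal enzymes held 8 genes (median -0.26). Of these, 4 were lower, against 9.95% of all genes tested, 1 was higher, against 7.94%, and 3 were not called. Lgmn encodes legumain, the lysosomal protease that cuts single-chain cathepsins into their mature chains. It measured 76.2, 68.3 and 67.3 FPKM in WT and 31.8, 30.7 and 32.2 FPKM in PGRN KO libraries, and its mean fell by 55.3% (log2 difference -1.13, limma adjusted p = 0.000151). Lrp1 (-0.63), a scavenging receptor, M6pr (-0.33) and, named outside the rule, Igf2r (-0.28), the receptors that carry enzymes tagged with mannose 6-phosphate, were lower as well. Sort1, which encodes sortilin, an alternative carrier and an uptake receptor of progranulin, was higher (0.38, adjusted p = 0.00271). Among 6 partners, 4 were lower and 2, Glb1 and Neu1, were not called (median -0.35). The 4 and the median include Grn, whose call was fixed by the knockout and says nothing about its partners. The lower ones besides Grn were Psap, Cd74 and Tmem106b. Psap, which encodes prosaposin, the precursor of lipid-presenting saposins and a binding partner of progranulin, went from 1186, 1089 and 1098 FPKM in WT to 761, 759 and 763 FPKM (log2 difference -0.56, adjusted p = 0.000786), and Tmem106b, a lysosomal membrane protein gene, was lower by a smaller margin (-0.24, adjusted p = 0.0419). The count of partners called lower, Grn included, was 3 without any 1 of the 6 libraries and with no filter, plain totals, TPM or voom.

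Genes of the wider lysosome were also called lower more often than higher. Of 30 hydrolase genes 13 were lower, 2 were higher and 15 were not called (median -0.17). Acp5, the tartrate-resistant acid phosphatase (-1.10), Lipa, the acid lipase (-0.74), and Scpep1, a serine carboxypeptidase (-0.67), were among those that fell, and the 2 higher ones, outside the naming rule, were Arsb (0.49) and Man2b1 (0.26). Of 21 genes for the lysosomal membrane and its proton pump 10 were lower, 1 was higher and 10 were not called (median -0.20), with Npc1, which exports cholesterol (-0.56), Cd68 (-0.47) and the cystine exporter Ctns (-0.39) among the lower ones, and Tmem192 (0.25, outside the rule) as the higher one. Both lists lost calls with plain totals, where 7 hydrolase genes and 5 membrane and pump genes were lower and 4 and 2 were higher, with medians of -0.060 and -0.076 against a median of 0.067 over all genes. Against the 9.95% of all genes called lower, 7 of 9 cathepsins were lower in the deposited scaling.

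**Figure D4:**
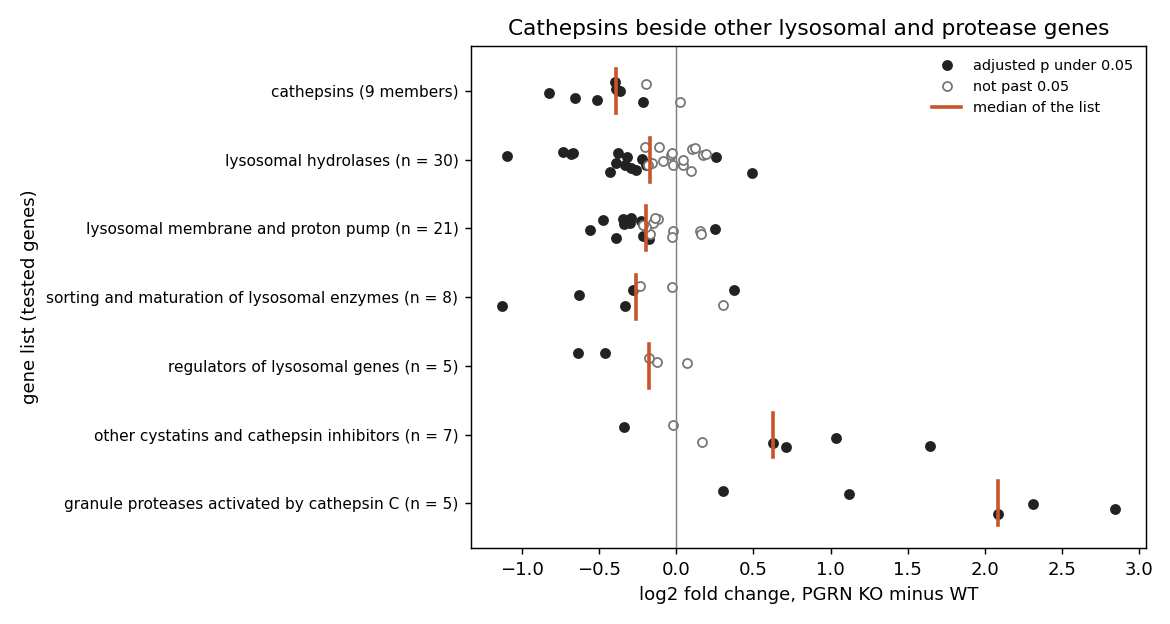
Log2 difference, PGRN KO minus WT, of each tested gene of the family of 9 cathepsins and of 6 lists of related genes, with filled points where the limma adjusted p is under 0.05 and an orange bar at each list's median. The medians are -0.40 for the cathepsins, -0.17 for hydrolases, -0.20 for membrane and pump genes, -0.26 for sorting genes, -0.18 for regulators, 0.63 for cystatins and 2.09 for the granule proteases. The last median and its filled points include Gzmb, which passed the filter only through its PGRN KO libraries. Among granule proteases with a mean FPKM of at least 1, which leaves Gzmb out, the median is 2.20.

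The list of factors that bind promoters of lysosomal genes held 5 genes (median -0.18). Of these, 2 were lower, against 9.95% of all genes tested, and 3 were not called. Tfeb, which encodes the factor that binds the TCACGTGA type of site shown for Ctsd and Ctsa, measured 12.6, 12.1 and 11.9 FPKM in WT and 7.69, 7.22 and 7.61 FPKM in PGRN KO libraries, and its mean fell by 38.6% (log2 difference -0.64, limma adjusted p = 0.000701). Mitf, a relative of Tfeb, fell too (-0.46, adjusted p = 0.00772). Tfe3 (-0.12, adjusted p = 0.141) and Spi1, which encodes PU.1 (-0.18, adjusted p = 0.169), were not called. Among the genes that hold TCACGTGA both were lower, Ctsd by a call that depended on the scaling. The gene with CACGTG alone, Ctsl, was not called, and of those with GAGGAAGT Ctss was lower and Ctsc was not called. Of the matched promoters with none of these letters, Ctsk and Ctsz were lower and Cst3 was higher. Ctsb and Ctsh, both lower, had no matched promoter. With so few promoters this is a description. CACGTG was also held by 4 of 6 matched sorting genes (66.7%), 6 of 24 hydrolase genes (25.0%) and 5 of 17 membrane and pump genes (29.4%).

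Monocytes and macrophages are rich in these proteases, so their markers are given beside the cathepsins. Of 14 markers 10 could be tested. Among these, 3 were lower, against 9.95% of all genes tested, 1 was higher, against 7.94%, and 6 were not called. Ccr2, the chemokine receptor of inflammatory monocytes (-0.82), and F13a1 (-0.46) were among the lower ones, and Ly6c2 was higher (0.37). Ccr2 measured 3.61, 3.80 and 4.05 FPKM in WT and 1.48, 1.73 and 1.99 FPKM in PGRN KO libraries (limma adjusted p = 0.00200). The list summed to 557.5 to 561.7 FPKM in WT and 573 to 727 FPKM in PGRN KO libraries, most of it Ly6c2. Mertk, a defining receptor of macrophages, was at 0 in all 6 libraries, and C1qa, C1qb and C1qc were at 0 in 5 of 6 libraries each. Csf1r, Adgre1 and Fcgr1, named outside the rule, were present in every library and not called. The means in WT and PGRN KO libraries were 45.6 and 40.9 FPKM for Csf1r, 46.3 and 43.4 for Adgre1, and 27.5 and 21.9 for Fcgr1. The part of these cells in the cathepsin values was not tested.

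Markers of other cells also moved. The B and plasma cell list summed to 466 to 483 FPKM in WT and 2189 to 2484 FPKM in PGRN KO libraries, nearly all of it Igkc, the kappa light chain gene, with means of 415 and 2224 FPKM (log2 difference 2.42). Jchain was also higher (1.66), whereas Ighm, the heavy chain gene of IgM, was lower (17.5 and 7.18 FPKM, -1.19). Tnfrsf17, at 0 in the WT libraries, passed the filter only through the PGRN KO libraries, and no count is given for this list. The basophil and mast cell list summed to 2.04 to 2.47 FPKM in WT and 11.01 to 12.5 FPKM in PGRN KO libraries, with Prss34 (1.67) and Mcpt8 (1.54) higher, and no count is given because Fcer1a and Cpa3 passed the filter only through the PGRN KO libraries. The erythroid list had 3 of 4 higher (0.989 to 3.09 against 5.44 to 6.36 FPKM). The T and NK cell list had 1 of 2 higher (2.49 to 3.29 against 7.54 to 8.67 FPKM). The higher one, Nkg7, made up most of the sum, with means of 2.54 and 7.79 FPKM. Cd3d was not called (0.433 and 0.278 FPKM), and Cd3e and Cd3g were at 0 in every library. The dendritic cell list had 0 of 2 called (0.822 to 0.997 against 0.463 to 0.556 FPKM). Of the 12 neutrophil markers 1 was higher, Mmp9 (0.25), and 2 were lower, Mmp8 (-0.45) and Csf3r (-0.16). Over all genes tested, 7.94% were higher and 9.95% lower. The part of any of these cells in the cathepsin values was not tested.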

How the data were processed

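Neutrophil RNA of 6 cultures (3 WT, 3 PGRN KO) had been sequenced after poly-A selection and NEBNext library construction. The authors deposited FPKM values per gene. The submitters' processing notes name CASAVA, HISAT2 2.0.5, featureCounts 1.5.0-p3, DESeq2 1.20.0 and mm10/GRCm38, whereas the study's methods name HTSeq for counting. Each FPKM times gene length gave whole fragments (tolerance 0.05) for 100% of values. The library sizes so recovered differ from the plain totals: fragments on genes were 1.03 to 1.04 times the size used in WT and 0.946 to 0.957 times in PGRN KO libraries. No library pair was identical (chi-square per degree of freedom 2.82 to 11.8).

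limma 3.58.1 (trended empirical Bayes, R 4.3.3) was fitted to log2(FPKM + 1), PGRN KO minus WT, over the 14807 genes whose mean FPKM reached 0.1, with two-sided p-values adjusted by Benjamini-Hochberg over all of them. On this scale the change of low genes is understated. An exact permutation test of 3 against 3 cannot go below p = 0.10 and was not used. Shares, ratios and orders were given no test. The fit was tested on simulated data. Alternatives were 2 other pseudocounts, 2 other filters, 4 other scalings, voom on the recovered fragments, 2 other variance models, protein-coding genes alone, a stricter threshold and leaving out each library.

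The members and lists were chosen with earlier results of these data known. Named are all members, Grn and, of each list, at most 4 genes: those called with the largest change at a mean FPKM of at least 1, then the most abundant. Some genes that this rule names are not reported here. Gene positions are those of the table. All 10 members had the same start and end in GENCODE M21 (GRCm38). Promoters are from RefSeq (GRCm38.p6). The labels give equal numbers of fungus and neutrophils, the study's text another ratio. No protein comparison was made. No sample column was left out (0).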

Additional observations from a re-analysis of the deposited data

How the results depend on the processing

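Ctsa, Ctsb, Ctss, Ctsk and Ctsh passed the threshold under 18 of 18 alternatives, Ctsz under 17, Ctsd under 13 and Cst3 under 12, each in its direction, while Ctsl and Ctsc passed under 0. The alternatives are not independent checks. Median-of-ratios scaling barely changed the deposited values, with Ctsd at -0.215 in both fits. For Ctsd, voom (-0.094) came close to plain totals (-0.095). The difference of Ctsl, 0.024, turned to -0.0052 without WT replicate 1 (adjusted p = 0.961, limma) and was at most 0.048 when any other library was left out. The count of members called higher was 0 when the variance was modelled without a trend and with a threshold of 0.01, and 0 to 1 when a library was left out. The count called lower was 5 to 7 throughout. Over all genes, 2149 were higher and 934 lower with plain totals and 2986 were higher with voom, against 1175 and 1473. Leaving out a library gave 581 to 947 higher and 804 to 1282 lower, with fewer samples in the fit. For the changes with scaling the cause was not tested. By fragments, not divided by length, the share of Ctsb in the 9 cathepsins was 51.4% in WT and 49.5% in PGRN KO libraries and no longer overlapped. The protein comparison was not run. No paired analysis was possible because the genotypes share no replicate numbers. Ctsk, with at most 194 fragments a library, is the member that depth limits most.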

Other observations

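Some ratios between genes in the same library were looked at after their values had been seen, and are given with no test. Ctsb stood at 42.4 ± 1.85 times the level of Ctsl in WT and at 31.6 ± 2.17 times in PGRN KO libraries (SD, n = 3). Ctsa stood at 0.481 ± 0.0346 times the level of Neu1, its partner in the lysosomal complex, in WT and at 0.310 ± 0.0199 times in PGRN KO libraries. Ctsk stood at 0.0213 times the level of its neighbour Ctss in WT and at 0.0141 times in PGRN KO libraries. In each of the 3 ratios the 3 PGRN KO libraries lay below the 3 WT libraries.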
